A study of Mus musculus with 8 samples.

Results

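The 8 receptors described here are odorant receptor (OR) genes that lie around the P element, an enhancer on mouse chromosome 7, and were taken by name: Olfr705, Olfr706, Olfr710, Olfr6, Olfr711, Olfr713, Olfr714 and Olfr17, in chromosomal order. Each was measured by 1 transcript cluster, a set of array probes that combines the exons of a gene, and all 8 were found among the 1016 OR genes and 19928 genes tested. RNA came from the olfactory mucosa of 8 mice at postnatal day 3, with 1 array per mouse. Of these, 4 were conditional knockouts (cKO) of genotype 123Cre:Lhx2(fl/fl) and 4 were littermate controls, 2 of them Lhx2(fl/+) and 2 123Cre:Lhx2(fl/+), all on a mixed 129 x C57BL/6J background. Every mouse therefore carried at least 1 floxed Lhx2 allele, and controls 3 and 4 carried the 123Cre transgene as well. The 123Cre transgene acts from the immature stage of olfactory sensory neurons (OSNs), and the study's sections showed Lhx2 mRNA still present in most OSNs of such mice. The mucosa also holds supporting, basal, glandular and connective tissue cells.

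ORs are G-protein-coupled receptors, and each OSN makes a single one of them from a single allele. Enhancers scattered among the OR clusters help an OR gene to be chosen, and they carry binding sites for homeodomain proteins such as the LIM-homeodomain factor Lhx2 and for Ebf proteins, called O/E sites. The P element is one of these enhancers and, like the H element on chromosome 14, acts on OR genes close to it on the same chromosome. It is named after Olfr17, better known as the P2 receptor, whose axons have often been traced to their glomeruli in the olfactory bulb. The comparison of cKO and control mice asks how far the mRNAs of this group change when Lhx2 is removed from maturing OSNs.

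By the older MOR family names in RefSeq, the group holds 4 families of related receptors. Olfr705 and Olfr706 belong to family MOR283, Olfr710 to MOR260, Olfr6 (also called M50) and Olfr711 to MOR103, and Olfr713, Olfr714 and Olfr17 (also called P3, P4 and P2) to MOR263. They lie in a run of 24 OR genes, from Olfr693 to Olfr716, in which fewer than 5 other protein-coding genes separate one OR gene from the next. The first 5 members are read from the minus strand and the last 3 from the plus strand. Sequences came from RefSeq on build GRCm38.p6, where all 8 members had a window around the start of the gene model. The first 50 bases of the gene models in families MOR263 and MOR283 are shown because close relatives can share array probes, with the start codon in capitals.
Olfr713, plus strand, chr7:107036136-107036185: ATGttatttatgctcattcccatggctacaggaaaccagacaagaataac
Olfr714, plus strand, chr7:107073830-107073879: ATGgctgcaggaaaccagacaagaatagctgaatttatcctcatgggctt
Olfr17, plus strand, chr7:107097467-107097516: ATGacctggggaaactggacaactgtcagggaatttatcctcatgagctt
Olfr705, minus strand, chr7:106874194-106874243: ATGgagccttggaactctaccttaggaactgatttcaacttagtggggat
Olfr706, minus strand, chr7:106886766-106886815: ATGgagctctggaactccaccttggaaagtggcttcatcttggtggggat
The stretch of Olfr713 that begins 21 bases after its annotated start matched the start of Olfr714 at 27 of 29 bases, without gaps. Olfr714 and Olfr17 matched at 35 of 50 bases, and Olfr705 and Olfr706 at 40 of 50. Probe sequences were not used here, so the part of cross-hybridization between these relatives in any value was not tested.

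For 6 of the members the RefSeq model begins at the start codon and has a length that is a multiple of 3, so that the bases before it need not be a promoter. The models of Olfr710 and Olfr711 have neither feature, and their 250 preceding bases are shown as possible promoters. Neither the coding start nor the start of transcription was located for them. Capitals mark matches to a homeodomain core (TAATNA) or to an O/E core (CCCNNGGG) on either strand.
Olfr710, minus strand, chr7:106948313-106948562: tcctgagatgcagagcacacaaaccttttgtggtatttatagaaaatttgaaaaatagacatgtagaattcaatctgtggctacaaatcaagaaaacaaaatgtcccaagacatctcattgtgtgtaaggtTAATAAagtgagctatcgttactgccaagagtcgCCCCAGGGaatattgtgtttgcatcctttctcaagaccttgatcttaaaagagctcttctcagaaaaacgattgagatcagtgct
Olfr711, minus strand, chr7:106975452-106975701: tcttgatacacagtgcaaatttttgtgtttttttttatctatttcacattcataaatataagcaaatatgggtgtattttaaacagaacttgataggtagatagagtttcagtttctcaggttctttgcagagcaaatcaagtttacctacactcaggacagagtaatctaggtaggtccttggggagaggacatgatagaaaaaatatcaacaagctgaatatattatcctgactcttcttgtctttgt
The Olfr710 window held 1 homeodomain match and, downstream of it, 1 O/E match, and the Olfr711 window held neither. No match says only that these letters are absent from this window. Among 255 OR genes whose model does not begin at a start codon, 66.7% of the windows held the homeodomain core and 7.5% the O/E core. Over all 27025 genes of the promoter table the shares were 24.8% and 11.7%.

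The arrays gave log2 values, from which percentages of control were computed as 2 to the power of the difference, with array medians between 8.82 and 8.89. Only the first exons of Lhx2 are floxed, whereas probes of this array type are spread along a transcript. The Lhx2 cluster read 13.03, 12.55, 13.01 and 13.02 in cKO mice 1 to 4 and between 13.09 and 13.20 in controls. Its difference of -0.24 (SE 0.11) did not pass (adjusted p = 0.337 by limma), so Lhx2 itself checks the labels only weakly. The array of cKO mouse 2 stood apart from the other cKO arrays, as it did for ORs in general. The main results for the receptors and the list means are therefore also given without it. It was the only cKO array whose title carries the letter B, a letter of unstated meaning also found on controls 1 and 2. It was also the only cKO array with a low value of the Y-linked gene Eif2s3y (6.51 against 11.10 to 11.33 in the other cKO mice), which was low in controls 1 and 4 too (6.06 and 6.67). The part of these features in the values of the receptors was not tested.

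All 8 receptors had lower mean values in cKO mice, as did 1010 of the 1016 OR genes. Of the 8, 2 fell at an adjusted p under 0.01 by limma, Olfr705 and Olfr706. At that threshold 2.07% of all genes and 30.1% of OR genes were lower, so that 2 of 8 is close to the share among ORs. With an adjusted p under 0.05, under which 66.8% of OR genes and 5.17% of all genes were lower, 4 of the 8 passed, Olfr6 and Olfr714 being the additional ones. The same 4 had an unadjusted p under 0.01 in the methods' t-test, as did 60.0% of OR genes and 5.64% of all genes, but 0 passed there after adjustment. That t-test was run here on values without the study's correction for mature OSN number and adjusted over all 19928 genes. It is therefore not a repeat of the study's own calls. In 5 members all cKO arrays lay below all control arrays, as they did in 80.2% of OR genes and 8.43% of all genes. The median difference of the 8 was -0.89, beside -0.86 over all OR genes.

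**Figure D1:**
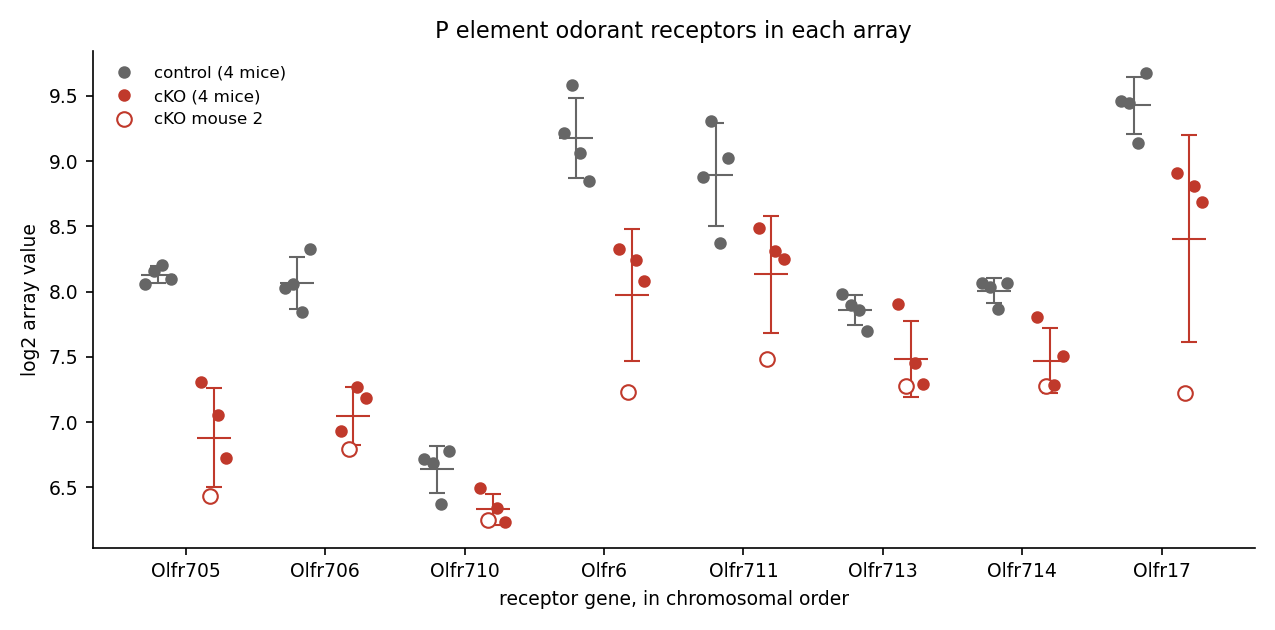
Log2 array values (vertical axis) of the 8 receptors in each of 4 control mice (grey) and 4 cKO mice (red), with bars for mean and SD and an open circle for cKO mouse 2. The groups are separate for Olfr705, Olfr706, Olfr6, Olfr714 and Olfr17 and overlap for Olfr710, Olfr711 and Olfr713, and the open circle is the lowest cKO value in 7 of 8 receptors.

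Olfr705 read 8.06, 8.16, 8.20 and 8.09 on the log2 scale in controls 1 to 4, and 7.31, 6.43, 7.06 and 6.73 in cKO mice 1 to 4. The groups were separated by 0.75 on that scale, the widest gap in the group of receptors. Its difference was -1.25 (SE 0.16, adjusted p = 0.00448 by limma), which puts it at 42.1% of control. Its neighbour and closest relative in the group, Olfr706, read 8.02, 8.06, 7.85 and 8.33 in controls and 6.93, 6.79, 7.27 and 7.19 in cKO mice. Here too every cKO mouse lay below every control, and the spread within the cKO mice was the smaller for the pair (SD 0.22 against 0.38). Olfr706 fell by 1.02 on the log2 scale (SE 0.13, adjusted p = 0.00425 by limma), to 49.3% of control. Olfr705 still passed when either cKO mouse 1 or cKO mouse 2 was left out, and Olfr706 when control 3, cKO mouse 1 or cKO mouse 2 was. Neither passed without any one of the other arrays, where adjusted p-values by limma reached 0.0188 for Olfr705 and 0.0182 for Olfr706.

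Of the MOR103 pair, Olfr6 was separate between the groups and Olfr711 was not. Olfr6 read 9.22, 9.58, 9.06 and 8.85 in controls and 8.33, 7.23, 8.25 and 8.08 in cKO mice. All cKO values were below the controls, and cKO mouse 2 was lowest by a wide margin. The difference was -1.20 (SE 0.25, adjusted p = 0.0237 by limma), and without cKO mouse 2 it was -0.96 with an adjusted p of 0.00878. Olfr6 did not pass with any other single array left out, where its adjusted p by limma reached 0.075. Olfr711 read 8.88, 9.31, 8.37 and 9.02 in controls and 8.49, 7.48, 8.31 and 8.25 in cKO mice. Control 3 lay below cKO mouse 1, so that the groups overlapped. Its difference of -0.77 (SE 0.25) did not pass (adjusted p = 0.149 by limma). Without cKO mouse 2 the difference of Olfr711 was -0.55 (adjusted p = 0.226 by limma).

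Olfr17, the P2 receptor, had the widest spread within the cKO mice. It read 9.46, 9.45, 9.14 and 9.67 in controls and 8.91, 7.22, 8.81 and 8.69 in cKO mice. Every cKO mouse was below every control, but cKO mouse 2 stood at 21.6% of the control mean while the others stood at 59.8% to 69.8%. The difference of -1.02 (SE 0.34) did not pass (adjusted p = 0.168 by limma). Without cKO mouse 2 the difference was smaller, -0.63, and its adjusted p was 0.017.

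The other members of family MOR263, Olfr714 and Olfr713, were not tested against Olfr17. Olfr714 read 8.07, 8.03, 7.86 and 8.07 in controls and 7.80, 7.28, 7.29 and 7.51 in cKO mice. The groups were separate by only 0.06, and the difference was -0.54 (SE 0.12, adjusted p = 0.0295 by limma). Olfr713 read 7.98, 7.89, 7.86 and 7.70 in controls and 7.90, 7.28, 7.45 and 7.29 in cKO mice. The value of cKO mouse 1 lay within the controls, and the difference of -0.38 (SE 0.13) did not pass (adjusted p = 0.202 by limma). Without cKO mouse 1 both passed, Olfr714 at -0.65 (adjusted p = 0.00461) and Olfr713 at -0.52 (adjusted p = 0.00942). Neither passed with any other single array left out, where adjusted p-values by limma reached 0.0902 for Olfr714 and 0.391 for Olfr713. Without cKO mouse 2 the differences were -0.47 for Olfr714 and -0.31 for Olfr713.

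Olfr710 had the smallest difference of the 8. It read 6.71, 6.69, 6.37 and 6.78 in controls and 6.50, 6.25, 6.34 and 6.23 in cKO mice. Control 3 was within the range of the cKO mice, and the difference of -0.31 (SE 0.10) did not pass (adjusted p = 0.138 by limma). Leaving out any single array did not bring it past the threshold.

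Placed along the chromosome, the differences of the members did not follow a single order. Olfr705, Olfr706 and Olfr6 stood at -1.25, -1.02 and -1.20, with Olfr710 between the latter pair at -0.31, and Olfr713 and Olfr714 at -0.38 and -0.54 lay next to Olfr17 at -1.02. The other OR genes of the run gave a like range. Of the 15 that were tested, 6 fell: Olfr693 (-1.24), Olfr701 (-0.91), Olfr703 (-0.85), Olfr704 (-1.45), Olfr707 (-0.80) and Olfr716 (-0.98). Over all 15 the median was -0.80, and the differences ran from -1.45 for Olfr704 to -0.27 for Olfr702. Olfr2, known as I7 and lying between Olfr711 and Olfr713, overlapped between the groups (-0.65, SE 0.29, adjusted p = 0.342 by limma).

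**Figure D2:**
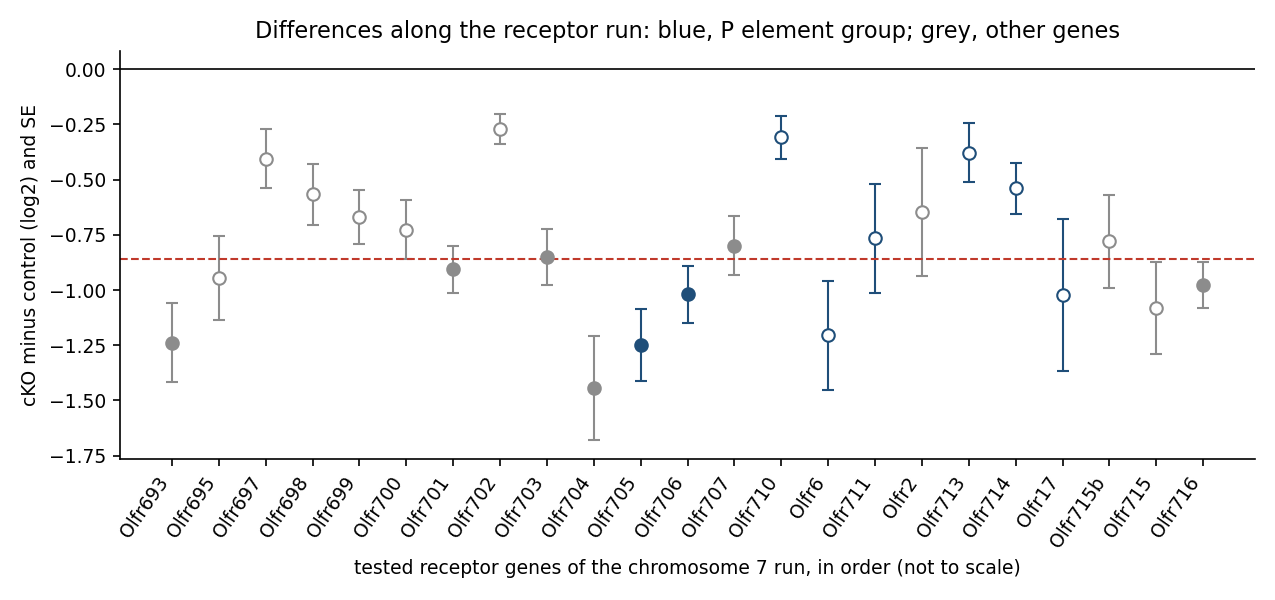
The cKO minus control difference on the log2 scale (vertical axis, bars are SE) is shown for the 23 tested OR genes of the chromosome 7 run in order, with the 8 P element receptors in blue and filled points for an adjusted p under 0.01. The dashed line is the median of all OR genes, -0.86, and the blue points lie on both sides of it, from -1.25 to -0.31.

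The members were then set against the average OR gene. On each array the mean of all OR genes outside the group was subtracted, and the remaining difference was tested for every OR gene. With this subtraction 6.89% of OR genes were lower and 4.92% were higher at an adjusted p under 0.01. Of the 8 members 0 passed by limma, and 0 by the methods' t-test after adjustment. With the title letter as block 1 member passed, Olfr710, which was higher. The remaining differences were above 0 in 4 members and below 0 in 4. Those of Olfr710 (0.58, SE 0.15, adjusted p = 0.0129), Olfr713 (0.51, SE 0.15, adjusted p = 0.0199) and Olfr705 (-0.36, SE 0.12, adjusted p = 0.0442) passed 0.05, a level at which 17.6% of OR genes were higher and 16.3% lower. Olfr17 remained at -0.13 (SE 0.21) and Olfr6 at -0.31 (SE 0.16). Among all OR genes ranked from the lowest difference, 210 lay below Olfr705 and 938 below Olfr710.

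**Figure D3:**
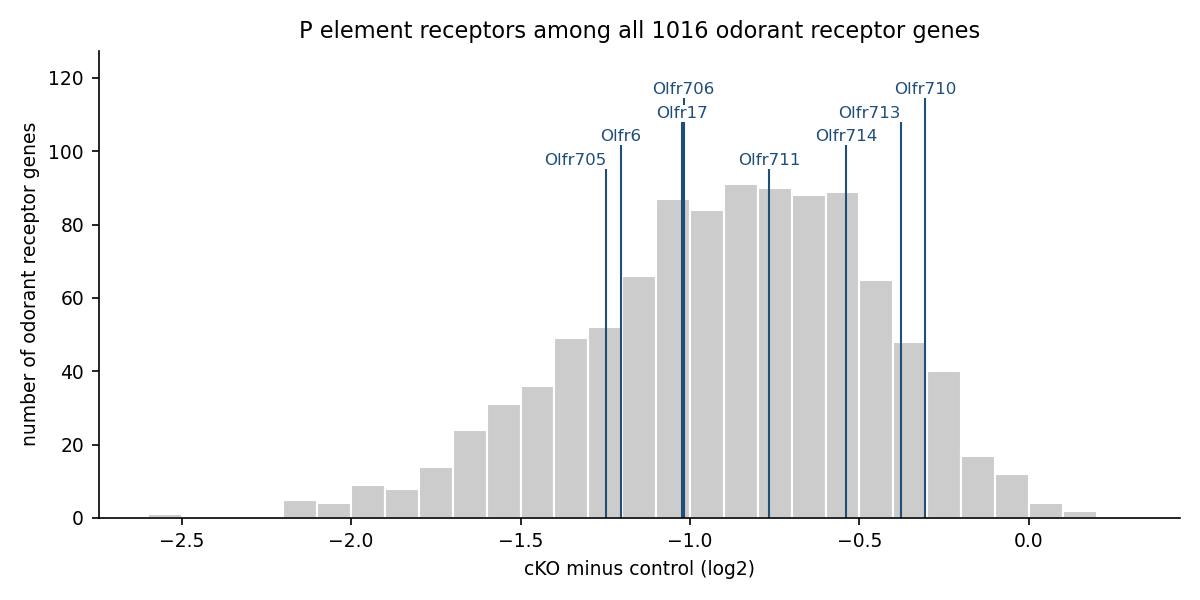
The number of OR genes (vertical axis) is plotted by their cKO minus control log2 difference (horizontal axis, bins of 0.1), and blue lines mark the 8 P element receptors. The lines run from -1.25 (Olfr705) to -0.31 (Olfr710), inside the range of all OR genes from -2.50 to 0.17.

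The mean of the 8 receptors was 8.28 ± 0.13 in controls and 7.46 ± 0.33 in cKO mice (SD, 4 mice per group), a difference of -0.81, and of -0.65 without cKO mouse 2. Within letter A (3 cKO, 2 control arrays) it was -0.58, and within letter B, which holds cKO mouse 2 and controls 1 and 2, it was -1.35. The same mean differed by -0.82 for the other OR genes of the run, by -0.98 for 83 class II OR genes elsewhere on chromosome 7 and by -0.89 for all OR genes. Without cKO mouse 2 these list means differed by -0.68, -0.79 and -0.74, and that of the H element group by -0.71. No test was made between these means, so none is called smaller or larger. The H element group, the best known comparable set, differed by -0.88 over 5 of its genes, and 1 of them fell, Olfr1510 (-1.09, SE 0.15, adjusted p = 0.00509 by limma). Olfr1507, its counterpart to Olfr17 as an often studied receptor, also spread widely in cKO mice, from 6.98 in mouse 2 to 9.12 in mouse 3, overlapped the controls and did not pass (-1.25, SE 0.48, adjusted p = 0.253 by limma).

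OR mRNA comes mainly from mature OSNs, and in whole mucosa fewer cells of a type and less RNA per cell cannot be told apart. A list of 23 mature OSN markers moved with the receptors. Its mean was 11.89 ± 0.04 in controls and 11.22 ± 0.29 in cKO mice (SD, 4 mice per group), and in 21 of the 23 all cKO arrays were below all controls. Of these, 6 fell, among them Omp (-0.97, adjusted p = 0.00605 by limma), the marker protein of mature OSNs. As a percentage the list mean was 37.5% lower in cKO mice. Subtracting it on each array is not the study's correction, which applied 1 factor from a longer list to all arrays, and the size of a correction depends on the list. For its longer list the study reported a smaller decrease in these mice. After its own correction it still reported significantly lower mRNA levels for most ORs. By in situ hybridization in older mice it also counted fewer OSNs expressing each OR it examined. With the list mean subtracted, 0 of the 8 receptors passed by limma, against 6.50% of OR genes lower and 0.0984% higher. Before adjustment 5 of the 8 had a p under 0.05 by limma in either direction, as did 536 of the 1016 OR genes. Of these members Olfr705, Olfr706 and Olfr6 were lower, and Olfr710 and Olfr713 were higher. The methods' t-test gave 0 after adjustment. The remaining differences were below 0 in 5 members and above 0 in Olfr710, Olfr713 and Olfr714. Olfr705 kept the lowest (-0.57, SE 0.09, adjusted p = 0.0136), and Olfr710 had the highest (0.37, SE 0.13, adjusted p = 0.223).

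**Figure D4:**
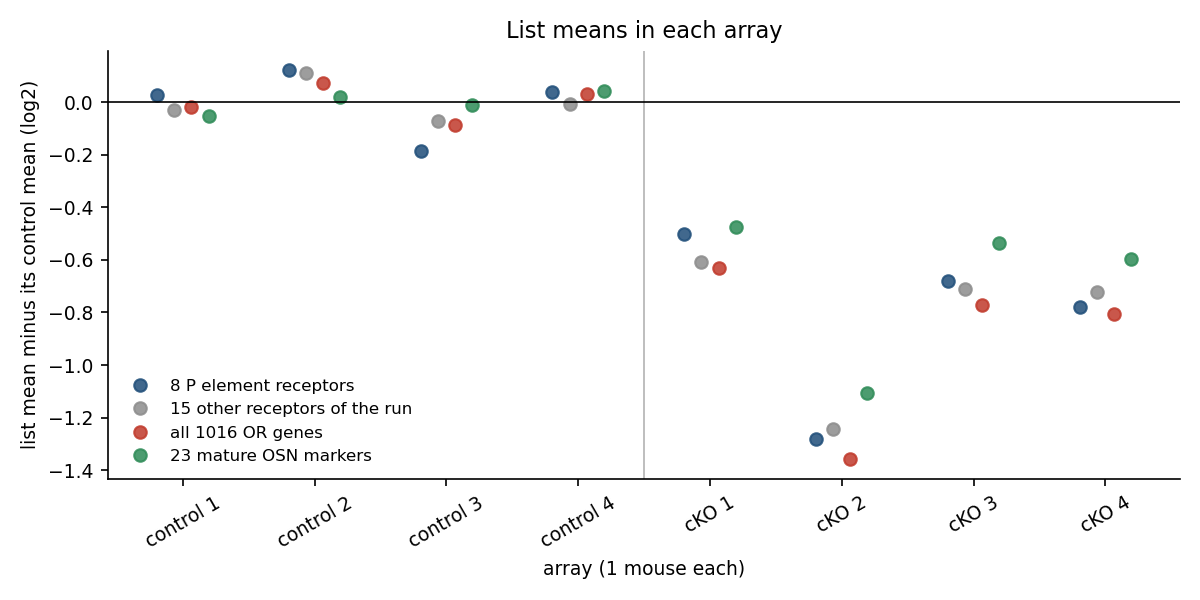
Mean log2 values of the 8 P element receptors, the 15 other receptors of the run, all OR genes and 23 mature OSN markers in each array, drawn as the difference from the mean of the list in controls (vertical axis), for 4 control and 4 cKO arrays (horizontal axis). All 4 lists are lower in every cKO array than in every control and lowest in cKO mouse 2, with the 8 P element receptors at a mean log2 value of 6.995 there against 7.50 to 7.77 in the other cKO mice.

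The proteins that act with these receptors were examined from fixed lists. Of 15 genes of odor transduction 4 fell and 0 rose: Cnga4 (-1.60), part of the channel that cAMP opens in OSN cilia, Omp, the adenylyl cyclase Adcy3 (-0.86) and the phosphodiesterase Pde1c (-0.55). Of these 15 genes 12 are also on the mature OSN list. Of 22 regulators of OR enhancers and OR choice, Adcy3 was the one that fell and 0 rose, while 9 had an unadjusted p under 0.05. The mean of these 22 was lower in every cKO mouse (11.50 to 11.59) than in every control (11.64 to 11.76). The Lhx2 cofactor Ldb1 differed by 0.00 (SE 0.05), the homeodomain gene Emx2 by -0.04 (SE 0.05) and the Ebf family gene Ebf4 by -0.46 (adjusted p = 0.0192), none of them past the threshold by limma. The mean of 20 immature OSN markers differed by -0.08, and 1 of the 20 fell, while 6 had an unadjusted p under 0.05. This mean was lower in every cKO mouse (11.853 to 11.990) than in every control (11.994 to 12.072), by a narrow gap. The mean of 5 vomeronasal sensory neuron markers differed by 0.01. Markers of progenitor, horizontal basal, supporting, microvillous, ciliated, glial, blood and connective tissue cells, in 8 lists, had mean differences of -0.14 to 0.14. The mean of the progenitor and dividing cell list was higher in every cKO mouse (11.41 to 11.53) than in every control (11.27 to 11.40), and 4 of its 6 genes had a p under 0.05 before adjustment. That of the respiratory ciliated cell list was lower in every cKO mouse (10.16 to 10.37) than in every control (10.39 to 10.48), with 3 of 5 such genes. The microvillous cell list differed by 0.13 with overlapping groups. Of the 47 genes tested on those 8 lists 0 passed by limma, although 8 had a p under 0.05 before adjustment, and in the methods' t-test 1 had a p under 0.01 before adjustment. Their part in the values of the receptors was not tested.

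The genes whose values followed the mean of the 8 receptors most closely over the 8 arrays were Dnajb13 (Pearson r = 0.997), Olfr1489, Olfr285, Olfr1299 and Kirrel2 (r = 0.994), an adhesion molecule of OSN axons. These values describe 8 arrays that share the split into groups and the low cKO mouse 2, so they carry no test. The differences of these genes were -0.54 for Dnajb13, -1.14 for Olfr1489, -0.75 for Olfr285, -1.24 for Olfr1299 and -0.79 for Kirrel2. Kirrel2 is also on the list of mature OSN markers.

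The control genotypes were compared as values only. For the 8 receptors the mean of the 123Cre:Lhx2(fl/+) controls minus that of the Lhx2(fl/+) controls lay between -0.45 for Olfr6 and 0.04 for Olfr706, with 2 arrays each, and -0.40 for Olfr711 was the next lowest. Among the controls genotype and title letter cannot be told apart. Control 3 was the lowest control for Olfr706, Olfr710, Olfr711, Olfr714 and Olfr17.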

How the data were processed

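RNA of olfactory mucosa was hybridized to Affymetrix Mouse Gene ST arrays. The deposited table holds 28312 transcript clusters, with log2 values that the authors made, per the submitters' processing notes, with Affymetrix Expression Console. The sources used here give neither its version nor the background correction and summarization. The number of arrays limits the precision, with a median SE of 0.07 over all genes. Groups came from the phenotype label. Replicate numbers follow accession order and pair nothing, and as each mouse is 1 array, p-values measure the spread between mice.

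Clusters with 1 symbol in the platform annotation (21759) were kept, several symbols were left out (1605), and the cluster with the highest mean was used per gene. Of these clusters 21668 matched RefSeq (GRCm38.p6) by Entrez identifier. OR genes were those with Olfr symbols, pseudogene symbols excepted. Differences were tested with limma 3.58.1 (R 4.3.3; lmFit, eBayes, two-sided, Benjamini-Hochberg over all 19928 genes, or over OR genes for values relative to the OR mean), after the code had been tested on simulated data. The study corrects ORs for mature OSN number by 1 factor from a longer published list. Here the mean of 23 markers was subtracted array by array instead, which is another and not an equivalent correction. The members and gene lists were chosen with earlier results of these data known. Named genes were the 8 members, Lhx2, Emx2, Omp, run genes past the threshold with their extremes, the H element genes, called genes of the regulator and transduction lists, and the 5 genes most correlated with the member mean. Olfr2, Ldb1, Ebf4 and Eif2s3y were named after their values were seen. Alternatives were each array left out, quantile normalization, centring, the title letter as block or by itself (the latter added after seeing the data), 1 control genotype, all clusters, other thresholds, the methods' t-test, eBayes with trend, and a filter on dim genes (log2 7.52).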

Additional observations from a re-analysis of the deposited data

Results flagged for a closer look

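Olfr17 in cKO mouse 2 read 7.22 on the log2 scale, against 8.69 to 8.91 in the other cKO mice, a gap of 0.868 of the range of the group, over the critical value of 0.829 for 4 arrays. Of 18 groups of arrays examined for the members and their mean this was the 1 that stood out, and chance gives about 1 in 20.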

How the results depend on the processing

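No paired analysis was possible because the labels do not tie arrays of the groups to each other by replicate number or litter, although per the methods each litter that gave cKO mice also gave controls. With the title letter as block the same 2 receptors fell. No alternative turned the sign of a receptor's difference. The number of receptors that fell was 2, and 0 to 4 when 1 array was left out: 0 without control 1, control 2, control 4, cKO mouse 3 or cKO mouse 4, 1 (Olfr706) without control 3, 3 without cKO mouse 2, and 4 without cKO mouse 1. It was 0 with controls of either genotype alone and by the methods' t-test with adjustment, 4 at an adjusted p under 0.05, 4 by the methods' t-test without adjustment, and 1 after the filter on dim genes, which removed Olfr705 and Olfr710. Relative to the OR mean 0 passed, but 1 (Olfr710) with the title letter as block, 1 (Olfr710) by the unadjusted t-test and 3 at an adjusted p under 0.05. Relative to mature OSN markers 0 passed, but 1 (Olfr705) under each of those looser thresholds. The mean difference of -0.81 lay between -0.91 and -0.65 with 1 array left out and was -1.35 within letter B. The cause of these changes was not tested, except that the filter left fewer genes. Signal over background was not used here, so its limit on the lower values, such as those of Olfr710, is not known.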
